A study of Homo sapiens with 8 samples.

Results

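The ABC transporter genes are the family whose proteins carry the ATP-binding cassette, a nucleotide-binding unit that most of them use to move substrates across membranes. Members were chosen by name, as every row of the deposited table whose annotated symbol is ABC followed by a subfamily letter from A to G and a number. This gave 39 genes, each with 1 transcript cluster (a group of probes that reports 1 gene), of 17709 clusters with a gene symbol. Subfamily A had 12 of these genes, B had 8, C had 9, D had 3, E and F had 1 each and G had 5.

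The RNA came from 8 xenograft tumours of SK-OV-3, a human ovarian cancer cell line, carried by nude mice, with 1 Affymetrix array per tumour. In 4 tumours the cells carried the vector pIND_BORA, which overexpresses BORA, a cofactor of Aurora A in mitotic entry, and in 4 they carried the empty vector pIND_EV. The labels give no promoter, inducer, number of clones or cell pools, mouse age or tumour time, and do not state if each tumour had its own mouse. A p-value here reflects the spread between these samples alone, and part of that spread may be technical. Nude mice lack a working thymus but keep B cells, natural killer cells and myeloid cells, and human probes read mouse RNA only where sequences allow.

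ABC proteins fall into groups by role. Subfamily A moves lipids and sterols, B holds the multidrug pump P-glycoprotein together with mitochondrial, lysosomal and bile transporters, and C holds the multidrug resistance proteins, which export organic anions and drug conjugates, and the regulatory subunits of a potassium channel. Subfamily D works in peroxisomes and lysosomes, G moves sterols and drugs, and E and F span no membrane and act on ribosomes. In ovarian carcinoma the family is best known for the efflux pumps that lower the drug content of cells.

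All levels below are the deposited signals on a log2 scale, so that 1 unit is a 2-fold step. Array medians lay between 6.96 and 7.07, and precision is limited by how few arrays there are. BORA itself was at 12.76 ± 0.23 in BORA tumours and 6.63 ± 0.57 in EV tumours (SD, n = 4 each), as the labels have it. EV replicate 1 stood apart from the other arrays: over all clusters it correlated with them at 0.943 to 0.954, where the other 7 correlated with each other at 0.981 to 0.992. Over the 39 ABC genes these ranges were 0.899 to 0.930 and 0.951 to 0.994. Differences of ABC genes are therefore given over 8 arrays and again without EV replicate 1, and those of other genes are given both ways where the sign turns or the size moves by over 1.5 times. Markers of the ovarian carcinoma line were present, with 7 of 7 measured genes above the negative controls in each BORA array and 6 or 7 in each EV array.

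Most ABC genes had no level that the arrays separated from background. The reference was the 95th percentile of the 612 negative control rows of each array, which averaged 7.82 in BORA arrays and 8.002 in EV arrays. By group means 9 members exceeded it in both groups: ABCA1, ABCA2, ABCA5 and ABCA7 of subfamily A, the mitochondrial transporter ABCB10, ABCC3 and ABCC4 of subfamily C, the peroxisomal ABCD3, and ABCE1. ABCD4, which takes part in the release of cobalamin from lysosomes, exceeded it in BORA tumours only (7.92 ± 0.095 against 7.56 ± 0.54, SD, n = 4 each). In single arrays ABCD4 was above only in BORA replicates 1 to 3. Its highest value, 8.16, was in EV replicate 1, whose percentile was 8.24. The other 29 members exceeded the reference in neither group. The share above in both groups was 23.1% of the members and 38.7% of all clusters.

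Array by array, 6 members were above the percentile in all 8 tumours, 27 in none and 6 in some. No member of subfamily G exceeded it in any array, nor did ABCF3, and in subfamily B 7 of 8 members stayed below it throughout. The drug pump genes ABCB1 (P-glycoprotein) and ABCG2 (the breast cancer resistance protein) were among these. ABCB1 was at 4.60, 4.32, 4.15 and 4.20 in BORA replicates 1 to 4 and at 4.30, 4.72, 4.34 and 4.49 in EV replicates 1 to 4. ABCG2 was at 4.76, 4.82, 4.94 and 5.16 against 4.97, 4.77, 5.17 and 4.99. The groups overlapped for both pumps, and a fold between signals below the percentile has no certain size.

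**Figure D1:**
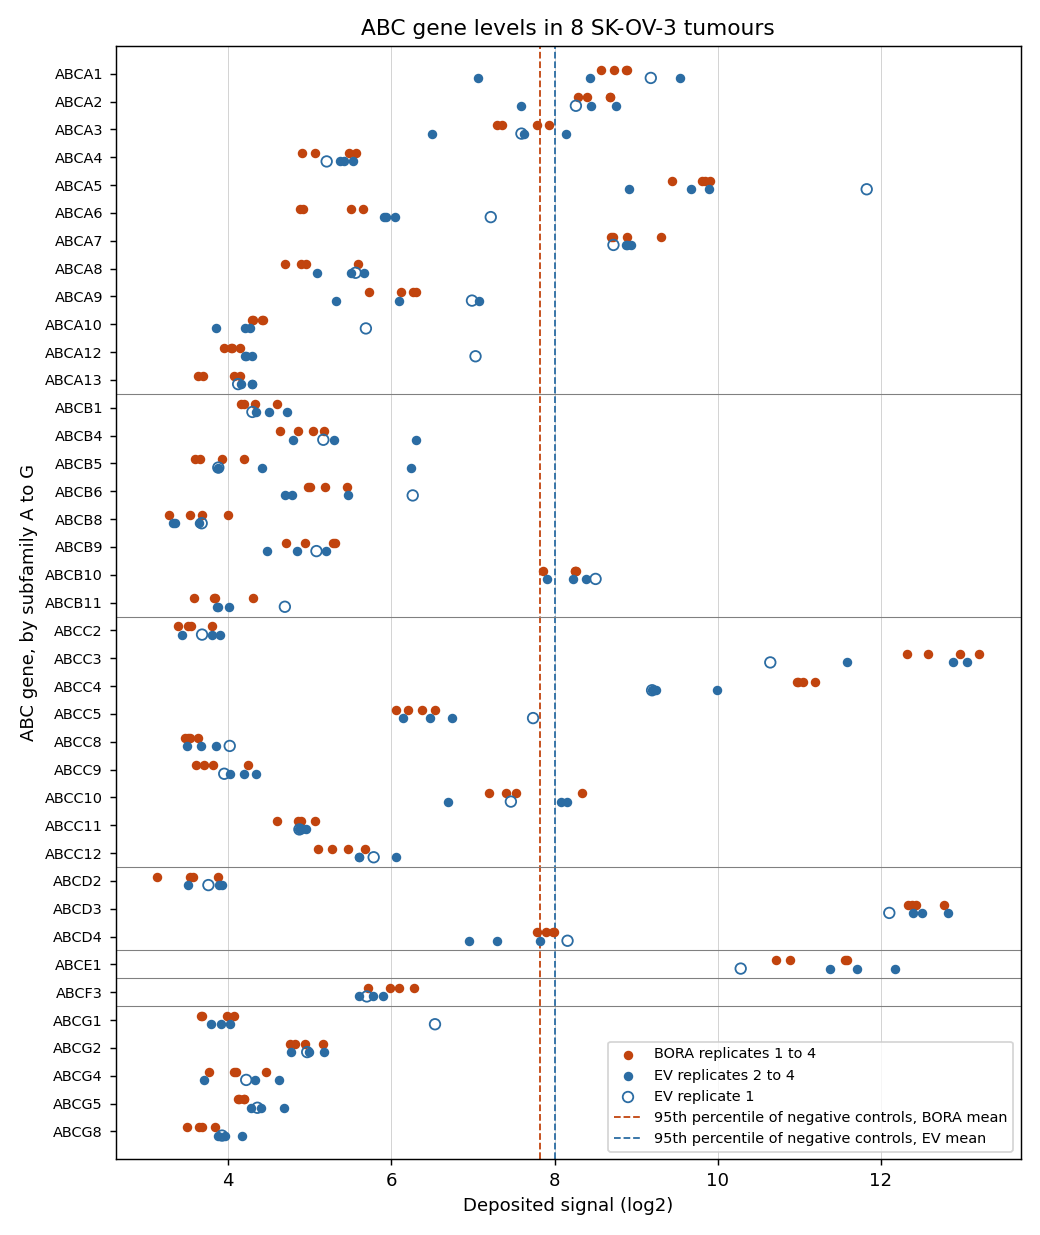
Deposited log2 signal (x axis) of the 39 ABC genes (y axis, by subfamily A to G), with 1 point per tumour: filled red for the 4 BORA tumours, filled blue for EV replicates 2 to 4 and an open circle for EV replicate 1. Dashed lines mark the mean 95th percentile of the negative controls in BORA arrays (7.82) and EV arrays (8.002); 29 genes lie below it in both groups by their means, and ABCC4 has its 4 BORA points apart from its 4 EV points.

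ABCC4 rose in BORA tumours and was the only member that passed the test in either comparison. Its protein, also called MRP4, exports cyclic nucleotides, prostaglandins and nucleotide analogues. Its transcript cluster, TC1300009505.hg.1, was at 11.19, 11.04, 10.98 and 10.97 in BORA replicates 1 to 4 and at 9.20, 9.24, 9.20 and 9.99 in EV replicates 1 to 4. The 4 BORA tumours lay close together, all above the highest EV tumour, replicate 4, which was itself apart from the other 3. All 8 values exceeded the negative control percentile of their array. The means were 11.04 ± 0.099 and 9.41 ± 0.39 (SD, n = 4 each), a log2 difference of 1.64 (SE 0.20) or a 3.11-fold rise (limma adjusted p = 0.0350).

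Without EV replicate 1 the ABCC4 difference was 1.57 (SE 0.21), a 2.97-fold rise (limma adjusted p = 0.0125). A two-sided exact permutation test gave p = 0.0286 over the 70 splits of 8 arrays and p = 0.0571 over the 35 splits of 7. In each case this is the smallest p the design allows. It follows from the lack of overlap alone, which 4.45% of all clusters showed higher and 4.91% lower over 8 arrays. ABCC4 was picked for this test with earlier results known, so the test adds nothing to the separation described above. Of the 39 members 1, or 2.56%, was called in each comparison, where 0.102% of all clusters were called over 8 arrays and 0.514% without EV replicate 1 (0.435% higher and 0.0791% lower). No member was called lower. The 8-array call ended when BORA replicate 1, 2, 3 or 4 or EV replicate 2 or 3 was left out (limma adjusted p = 0.0801, 0.105, 0.0993, 0.105, 0.0969 and 0.0851), while the difference stayed between 1.57 and 1.83 whichever array was left out. Without EV replicate 1 the call held whichever further array was left out.

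Some markers of other cell types also differed between the groups. Endothelial markers had a summed level of 8.89 to 9.48 in BORA tumours and 8.09 to 8.85 in EV tumours. Of the 6 markers, 1 or 2 exceeded the negative controls in BORA arrays and 0 in EV arrays. VWF, CLDN5, TEK and KDR exceeded them in no array and had lower means in BORA tumours than in EV tumours. The higher sum rested on CDH5 (means of 7.72 against 5.44) and PECAM1 (8.11 against 6.55). Neither gene passed (limma adjusted p = 0.129 and 0.137). Leukocyte markers (8 measured) summed to 11.63 to 12.27 in BORA tumours, to 12.67 to 13.22 in EV replicates 2 to 4 and to 11.01 in EV replicate 1. Of the 8, 2 exceeded the negative controls in each BORA array, 2 or 3 in EV replicates 2 to 4 and 1 in EV replicate 1. CSF1R, ITGAM, CD3E, CD14 and MS4A1 did so in none. PTPRC alone was at 12.19, 12.24 and 12.94 in EV replicates 2 to 4 and at 9.68 to 10.96 in BORA tumours. CD68 went the other way, with means of 10.75 in BORA and 10.40 in EV tumours. Platelet and erythroid markers lay at 8.72 to 9.04 and 8.53 to 8.83, with PF4, PPBP and GP9 above the controls in no array, and fibroblast markers overlapped at 15.30 to 15.77 and 14.87 to 15.96. Their part in the ABCC4 result was not tested. In bulk tumour RNA, fewer cells of a type and less RNA per cell cannot be told apart.

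ABCC4 lies on chromosome 13, as does BORA. Of the 5 nearest measured genes on each side of it, 0 of 10 passed (lowest limma adjusted p = 0.446 over 8 arrays), with differences from -0.21 for SOX21 to 0.92 for CLDN10, a tight junction gene. The lowest adjusted p among them was 0.292 without EV replicate 1. Of these neighbours 5 exceeded the negative controls in both groups. Over all 292 clusters of chromosome 13 the median difference was -0.020 over 8 arrays, with 2 past the threshold, BORA and ABCC4, and 0.072 without EV replicate 1.

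The start of ABCC4 and of 3 other members is shown for its count of CG dinucleotides, which the choice of members did not use. The median count was higher in members above the negative controls than in the others. Each line is the RefSeq promoter window of GRCh38.p14, from 250 bases before the gene start to 50 after it, 5′ to 3′ on the gene's strand, with CG dinucleotides in capitals. ABCC4 (chr13:95301402-95301701, minus strand) is the gene that rose, ABCE1 (chr4:145098061-145098360, plus strand) is a member above the controls in every array, and ABCA5 (chr17:69327084-69327383, minus strand) and ABCA6 (chr17:69141846-69142145, minus strand) belong to a single row of neighbours, the first above the controls and the other below them.
ABCC4: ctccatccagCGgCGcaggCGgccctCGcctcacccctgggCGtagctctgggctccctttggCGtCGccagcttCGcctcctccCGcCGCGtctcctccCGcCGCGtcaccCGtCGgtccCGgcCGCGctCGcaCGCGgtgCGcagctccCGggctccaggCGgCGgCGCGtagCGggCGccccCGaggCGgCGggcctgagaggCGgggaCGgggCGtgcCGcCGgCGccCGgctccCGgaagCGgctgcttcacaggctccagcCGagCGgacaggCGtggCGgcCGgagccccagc
ABCE1: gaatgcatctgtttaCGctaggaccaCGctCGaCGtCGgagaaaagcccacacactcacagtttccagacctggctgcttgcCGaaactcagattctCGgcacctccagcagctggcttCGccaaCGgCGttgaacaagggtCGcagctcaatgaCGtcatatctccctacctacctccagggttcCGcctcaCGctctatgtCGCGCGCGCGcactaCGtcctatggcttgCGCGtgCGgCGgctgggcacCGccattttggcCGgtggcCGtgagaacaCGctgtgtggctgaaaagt
ABCA5: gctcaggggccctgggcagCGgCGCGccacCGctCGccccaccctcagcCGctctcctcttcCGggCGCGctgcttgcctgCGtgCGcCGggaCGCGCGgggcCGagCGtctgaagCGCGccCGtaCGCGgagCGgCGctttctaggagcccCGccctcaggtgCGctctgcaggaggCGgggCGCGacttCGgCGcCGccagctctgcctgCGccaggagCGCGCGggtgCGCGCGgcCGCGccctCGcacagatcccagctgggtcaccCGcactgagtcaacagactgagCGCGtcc
ABCA6: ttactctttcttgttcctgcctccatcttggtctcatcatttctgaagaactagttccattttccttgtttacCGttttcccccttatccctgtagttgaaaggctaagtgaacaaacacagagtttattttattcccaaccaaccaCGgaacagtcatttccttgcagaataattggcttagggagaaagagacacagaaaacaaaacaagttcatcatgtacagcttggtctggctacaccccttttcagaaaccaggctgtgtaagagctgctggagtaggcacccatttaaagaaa
The windows held 47 CG dinucleotides for ABCC4, 28 for ABCE1, 45 for ABCA5 and 2 for ABCA6, at 79.7%, 59.7%, 76.3% and 41.7% G or C.

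The table had windows of this length for 32 of the 39 members, several for some. ABCC3, which was above the negative controls, had none. Members above the negative controls in at least 1 group (9 with a window) had a median of 39.0 CG dinucleotides per window, from 23.0 to 47.0. The 23 others had a median of 9.0, from 1.0 to 42.0, and the median over all 27305 genes of the table was 14.0. The ranges overlap: ABCA3 (42), ABCF3 (37), ABCG4 (27), ABCC5 (26), ABCB9 (25), ABCB6 (23) and ABCG2 (23) were below the controls with at least as many as ABCA1 (23), the lowest of those above. This is a description of these genes with no test, and windows of 1 gene were averaged. The same split was not made over all genes, so whether the higher count is particular to ABC genes was not tested.

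**Figure D2:**
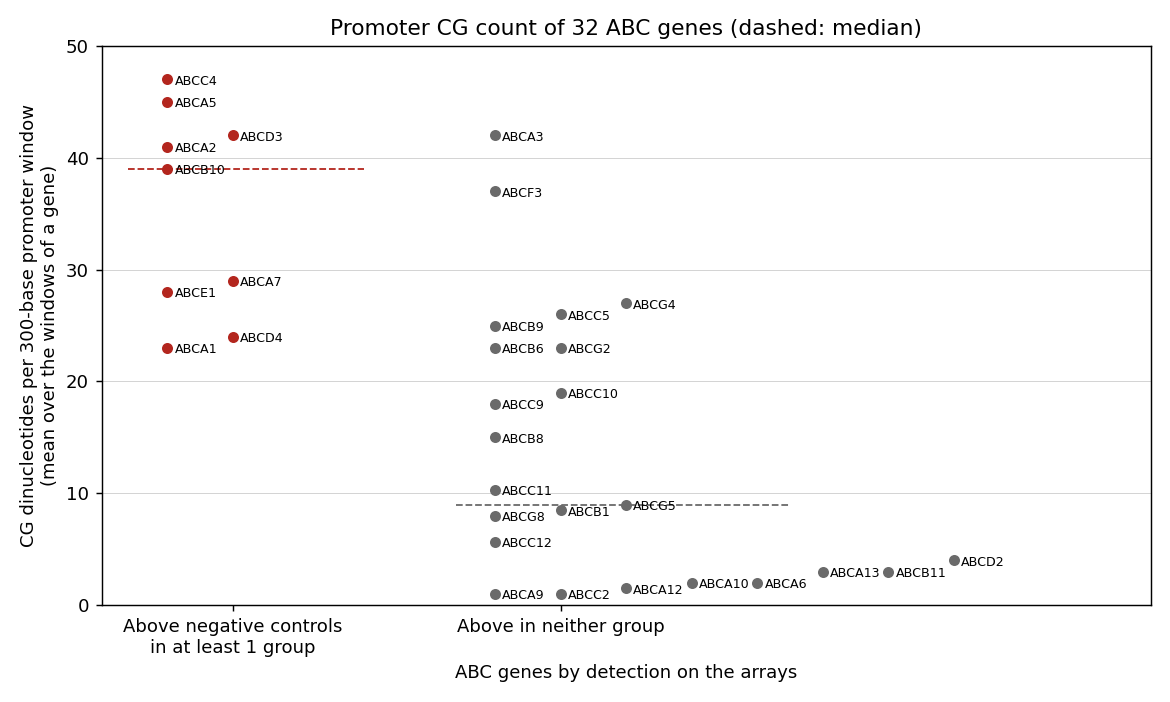
CG dinucleotides per 300-base promoter window (y axis, mean over the windows of a gene) for the 32 ABC genes with a window, split on the x axis by whether the gene exceeded the negative controls in at least 1 group (9 genes, red) or in neither (23 genes, grey). Dashed lines are medians (39.0 and 9.0); no gene above the controls has fewer than 23.0, a count that 7 of the 23 below them also reach, and sideways position within a group has no meaning.

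The ABCC4 window was also searched on both strands for 6 short motifs, none of which overlapped another there. It held the antioxidant response core TGACNNNGC once on the other strand, from position -149 relative to the gene start, the dioxin response core GCGTG 3 times and the ETS core CCGGAAG once. The GC box GGGCGG was not among its letters, nor were CCAAT and the TATA box core TATAAA. Of all 35116 windows of this length 13.3% held TGACNNNGC, 36.5% GCGTG, 10.3% CCGGAAG, 45.0% GGGCGG, 34.6% CCAAT and 11.5% TATAAA. A match is a description of letters and not a bound site.

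The other 38 members did not pass. Over 8 arrays their limma adjusted p lay between 0.227 and 0.988 and their log2 differences between -1.04 and 0.73. Without EV replicate 1 these ranges were 0.159 to 0.995 and -1.002 to 0.56. At an unadjusted p under 0.05 there were 3 of 39 members (7.69%) over 8 arrays, where 14.5% of all clusters stood, and 4 (10.3%) without EV replicate 1, where 15.3% stood. With counts of 3 and 4 of 39, the distance of these shares from those of all clusters says little about the family.

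The signs of these differences went with whether a gene was above the negative controls, in the members as in all genes. Over 8 arrays 27 of 39 members had a difference below 0, with a median of -0.15 against -0.026 for all clusters. Of the 29 members above the negative controls in neither group 24 (82.8%) were below 0, against 67.4% of all clusters of that kind. Of the 10 members above them in at least 1 group 3 (30.0%) were below 0, against 34.7%. This split is not independent of the sign, since it uses the group means. ABCD4, 1 of the 10, was above in BORA tumours only. Of all clusters 609 were above in BORA tumours only and 124 in EV tumours only. After quantile normalization, which gives all arrays the same distribution, 20 of the 29 (69.0%, against 54.4% of such clusters) and 5 of the 10 (50%, against 48.5%) were below 0. Without EV replicate 1, 26 of 39 (66.7%) were below 0, and 22 (56.4%) after quantile normalization, so the predominance of lower values depends in part on the scaling.

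**Figure D3:**
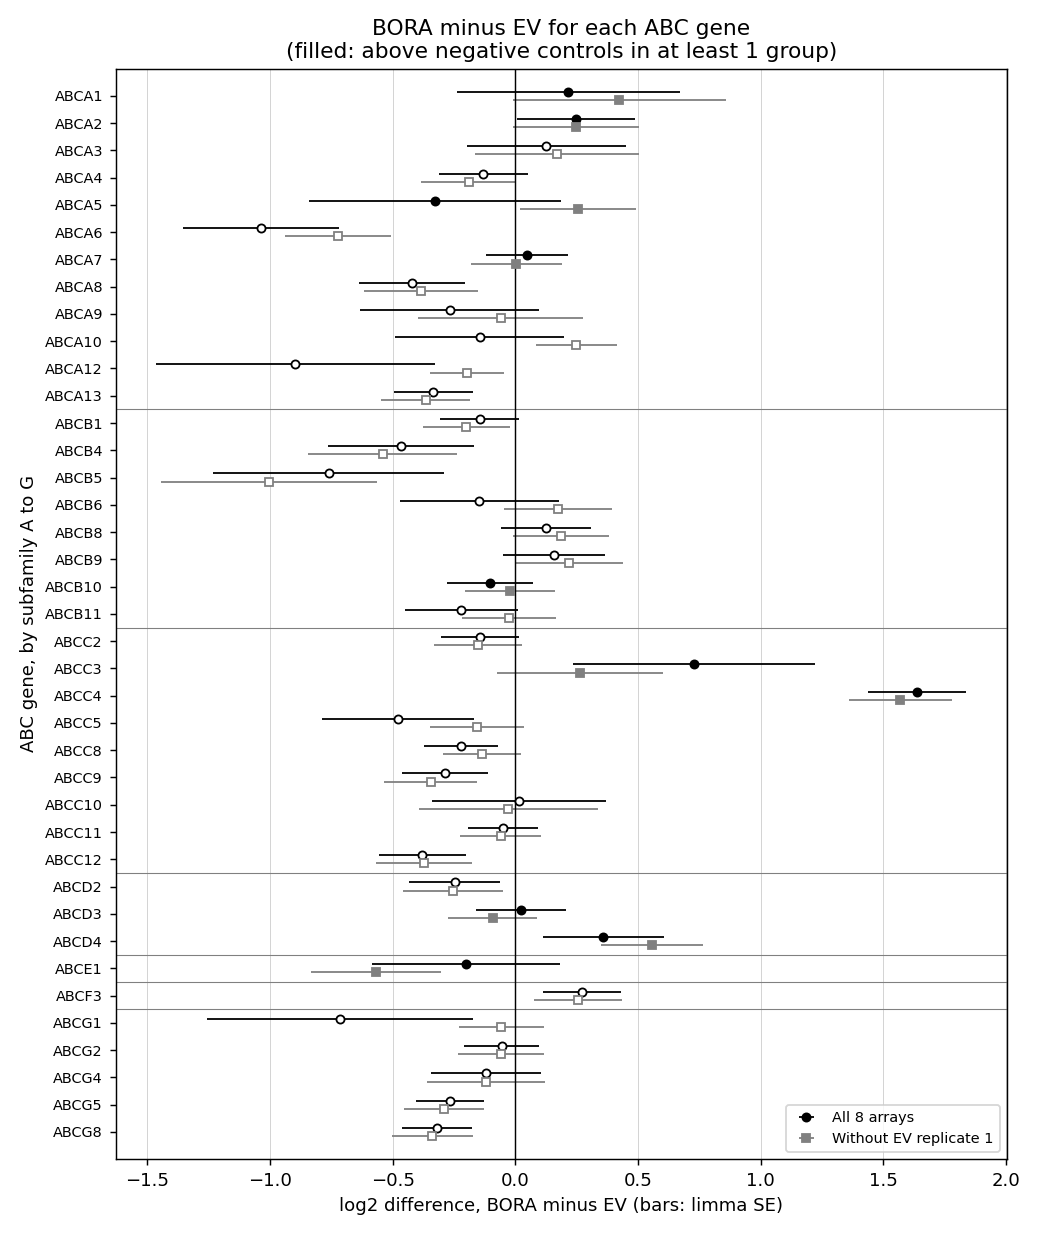
Log2 difference, BORA minus EV (x axis; bars are limma standard errors), of the 39 ABC genes (y axis, by subfamily), over all 8 arrays (black circles) and without EV replicate 1 (grey squares). Filled symbols are genes above the negative controls in at least 1 group. ABCC4 lies at 1.64 and 1.57, and the other 38 genes lie between -1.04 and 0.73 over 8 arrays, most of the open symbols below 0.

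Among the lipid transporters of subfamily A no gene passed (0 of 12), and the median difference was -0.21 over 8 arrays and -0.028 without EV replicate 1. At an unadjusted p under 0.05, 1 of the 12 stood in each comparison. ABCA1, which loads cholesterol onto apolipoprotein A-I, was at 8.89, 8.57, 8.87 and 8.73 in BORA tumours and at 9.18, 8.43, 9.54 and 7.06 in EV tumours. EV replicate 4 was low and the groups overlapped (log2 difference 0.22, SE 0.45, and 0.42, SE 0.43, without EV replicate 1). ABCA7, which moves phospholipids, was at 8.90 ± 0.29 in BORA tumours and 8.85 ± 0.092 in EV tumours (SD, n = 4 each), a difference of 0.048 that was 0.0042 without EV replicate 1.

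ABCA5, a lysosomal transporter, was at 9.91, 9.44, 9.81 and 9.84 in BORA tumours and at 11.83, 9.67, 8.91 and 9.89 in EV tumours. EV replicate 1 alone was high, and the difference changed from -0.33 (SE 0.51) to 0.26 (SE 0.24) without it. ABCA8, ABCA9, ABCA6, ABCA10 and ABCA5 follow each other on chromosome 17 with no other measured gene between them. EV replicate 1 had the highest value of the 8 tumours for ABCA6, ABCA10 and ABCA5, by more than 1 log2 unit each. ABCA9 was highest in EV replicate 4 (7.07) and next in EV replicate 1 (6.99), and ABCA8 was highest in EV replicate 2 (5.66). ABCA5 was the only gene of this row above the negative controls.

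ABCA6 was at 5.51, 4.88, 5.65 and 4.91 in BORA tumours and at 7.22, 5.90, 5.93 and 6.04 in EV tumours. All BORA values lay below all EV values, with a log2 difference of -1.04 (SE 0.32, limma adjusted p = 0.227) and of -0.72 without EV replicate 1 (SE 0.22, adjusted p = 0.159). None of the 8 values reached the percentile of the negative controls. ABCA8 (-0.42, SE 0.22, and -0.39 without EV replicate 1) and ABCA13 (-0.33, SE 0.16, and -0.36), also below it, overlapped between the groups over 8 arrays.

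ABCA12 loads lipids into the lamellar granules of keratinocytes. It was at 4.14, 3.94, 4.04 and 4.03 in BORA tumours and at 7.03, 4.20, 4.29 and 4.22 in EV tumours. EV replicate 1 stood far above the other 7, although still below the percentile of its array, 8.24. The squamous marker list summed to 18.57 in that tumour, with 11 of 13 markers above the negative controls, and to 12.88 to 15.03 in the other 7, with 1 or 2 of 13 above. In no array did IVL or TGM1 exceed them. The part of such cells in the ABCA12 value was not tested. The ABCA12 difference was -0.90 (SE 0.57) over 8 arrays and -0.20 (SE 0.15) without EV replicate 1, and neither passed (limma adjusted p = 0.492 and 0.570).

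**Figure D4:**
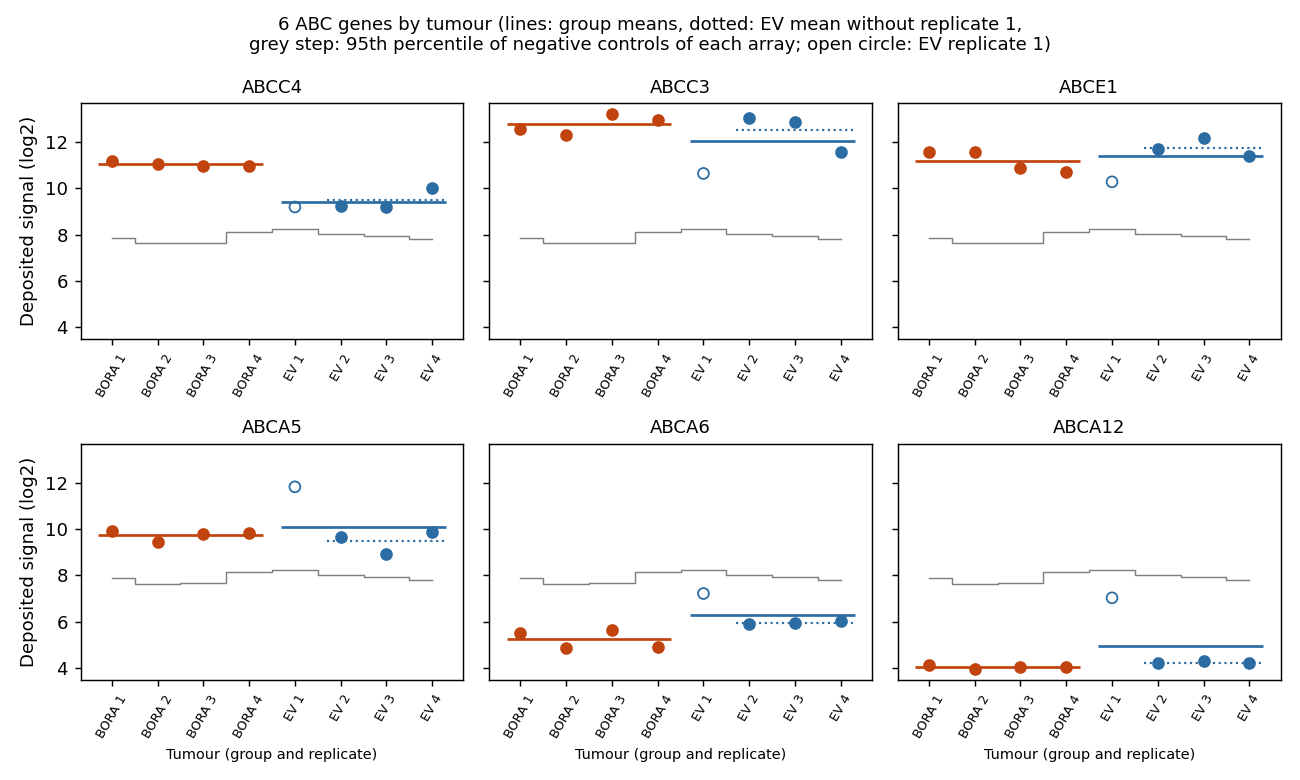
Deposited log2 signal (y axis) of ABCC4, ABCC3, ABCE1, ABCA5, ABCA6 and ABCA12 in each tumour (x axis), BORA in red and EV in blue, with EV replicate 1 as an open circle. Solid lines are group means, dotted lines the EV mean without replicate 1, and the grey step is the 95th percentile of the negative controls of each array. EV replicate 1 is high for ABCA5 (11.83), ABCA6 (7.22) and ABCA12 (7.03) and low for ABCC3 (10.64) and ABCE1 (10.28), while ABCC4 separates the groups with or without it.

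In subfamily B no gene passed (0 of 8; 0 at an unadjusted p under 0.05 over 8 arrays and 1 without EV replicate 1), and the median was -0.15 over 8 arrays and -0.022 without EV replicate 1. ABCB10, a transporter of the inner mitochondrial membrane, was the only member above the negative controls. It was at 8.25, 8.25, 7.86 and 8.27 in BORA tumours and at 8.50, 7.91, 8.23 and 8.39 in EV tumours, which overlapped (log2 difference -0.10, SE 0.17, and -0.020, SE 0.18, without EV replicate 1). ABCB6, a porphyrin transporter, was highest in EV replicate 1 (6.26). ABCB5 was at 4.19, 3.59, 3.93 and 3.65 in BORA tumours and at 3.88, 3.88, 4.41 and 6.24 in EV tumours. The high value in EV replicate 4 was more than 1 unit above every other tumour. ABCB5 had a difference of -0.76 (SE 0.47) over 8 arrays and -1.002 (SE 0.44, limma adjusted p = 0.311) without EV replicate 1.

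Subfamily C, the multidrug resistance proteins, held the only called member, and 8 of 9 did not pass. Its median was -0.14 in both comparisons. ABCC3 (MRP3), an exporter of glucuronide conjugates at the basolateral membrane, was at 12.58, 12.32, 13.21 and 12.97 in BORA tumours and at 10.64, 13.05, 12.88 and 11.58 in EV tumours. EV replicates 1 and 4 were low, and replicates 2 and 3 lay inside the BORA range. The difference was 0.73 (SE 0.49, limma adjusted p = 0.518) and was 0.26 (SE 0.34, adjusted p = 0.758) without EV replicate 1. ABCC12 had a difference of -0.38 (SE 0.18; -0.37 without EV replicate 1) with overlapping groups. The potassium channel subunits ABCC8 and ABCC9 and the canalicular pump ABCC2 stayed below the negative controls in every array.

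Subfamily D acts on fatty acids and vitamins in organelles, and none of its 3 members passed; at an unadjusted p under 0.05, 0 stood over 8 arrays and 1 without EV replicate 1. ABCD3, a fatty acid importer of the peroxisome, was at 12.77, 12.39, 12.43 and 12.33 in BORA tumours and at 12.10, 12.50, 12.40 and 12.82 in EV tumours. The groups overlapped, and the difference of 0.025 (SE 0.18) over 8 arrays was -0.093 (SE 0.18) without EV replicate 1, so its sign rested on that tumour. ABCD3 is also the median of the subfamily in both comparisons. ABCD4 was at 7.90, 7.999, 7.79 and 7.98 against 8.16, 7.82, 7.298 and 6.95. The EV tumours spread wider and enclosed the BORA range, and the difference was 0.36 (SE 0.25) over 8 arrays and 0.56 (SE 0.21, limma adjusted p = 0.240) without EV replicate 1.

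The members that span no membrane did not pass either. ABCE1, which splits ribosomes after translation ends, was at 11.58, 11.56, 10.88 and 10.72 in BORA tumours and at 10.28, 11.70, 12.18 and 11.38 in EV tumours. Its lowest value was in EV replicate 1 and its highest in EV replicate 3. Its difference was -0.20 (SE 0.38) over 8 arrays and -0.57 (SE 0.26, limma adjusted p = 0.337) without EV replicate 1. ABCF3 was at 6.01 ± 0.24 and 5.74 ± 0.13 (SD, n = 4 each), below the negative controls, with a difference of 0.27 (SE 0.16; 0.26 without EV replicate 1).

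In subfamily G none of 5 passed, and all lay below the negative controls; at an unadjusted p under 0.05, 1 stood over 8 arrays and 0 without EV replicate 1. All 5 differences were below 0, with a median of -0.27 over 8 arrays that was -0.12 without EV replicate 1 and also -0.12 after quantile normalization of the 8 arrays. Those of ABCG2 (-0.056, and -0.058 without EV replicate 1) and ABCG4 (-0.12 both ways) turned to 0.098 and 0.015 after that normalization. ABCG5 and ABCG8 form a sterol pump together, and their genes start 131 bases apart on opposite strands of chromosome 2. ABCG5 was at 4.12, 4.14, 4.19 and 4.20 in BORA tumours and at 4.36, 4.68, 4.27 and 4.40 in EV tumours, and ABCG8 was at 3.49, 3.67, 3.64 and 3.84 against 3.92, 4.17, 3.87 and 3.96. Neither gene's groups overlapped, with differences of -0.27 (SE 0.14) and -0.32 (SE 0.14; limma adjusted p = 0.409 and 0.341) that were -0.29 and -0.34 without EV replicate 1. The ABCG5 difference was -0.12 after quantile normalization of the 8 arrays. ABCG1, which sends cholesterol to lipoproteins, was at 6.53 in EV replicate 1 and between 3.67 and 4.07 in the other 7. Its difference was -0.71 (SE 0.54) over 8 arrays and -0.057 (SE 0.17) without that tumour.

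Groups without overlap were counted next. Over 8 arrays 1 member was higher without overlap (2.56%, against 4.45% of all clusters), ABCC4, and 4 were lower (10.3%, against 4.91%), ABCA6, ABCA12, ABCG5 and ABCG8, none of them above the negative controls. Without EV replicate 1, 2 were higher (5.13%, against 6.66%), with ABCA10 added, and 5 were lower (12.8%, against 7.68%), with ABCA13 added. Lower cases were also the more common among all clusters above the controls in neither group. Of 10115 such clusters 738 were lower and 216 higher over 8 arrays, where the 29 such members had 4 and 0. Without EV replicate 1 these were 1100 and 363 clusters, and 5 and 1 members. EV replicate 1 lay above all other tumours at 11 members (28.2%, against 20.6% of all clusters) and below them at 4 (10.3%, against 22.2%). It exceeded every other tumour by more than 1 log2 unit at 5 members (12.8%, against 3.32%), ABCA5, ABCA6, ABCA10, ABCA12 and ABCG1, and lay more than 1 unit below them all at 0 members (against 2.94%). EV replicate 4 had the lowest value at ABCA1, ABCA2, ABCA3 and ABCD4 among others. It had the highest at ABCB4 and ABCB5, by more than 1 log2 unit each, and at other members by less.

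Genes that work with ABC transporters were given as 10 lists, with 107 of 123 entries measured. None passed (0 of 107 in limma over 8 arrays and over 7), where 0.102% and 0.514% of all clusters did. None passed in the ordinary test either, which called 1 of all 17709 clusters over 8 arrays and 0 over 7. At such shares a count of 0, here and in each list below, says little about these genes. At an unadjusted p under 0.05 over 8 arrays stood 21 (19.6%), 12 higher and 9 lower, where 14.5% of all clusters did. With EV replicate 1 left out these were 22 (20.6%), against 15.3%. The ABC proteins named otherwise were all above 0 in both comparisons. TAP1, which with TAP2 forms the peptide pump that feeds MHC class I, was at 8.63, 8.57, 8.94 and 8.73 in BORA tumours and at 8.08, 8.32, 7.99 and 7.65 in EV tumours. All BORA values were above all EV values, with a difference of 0.71 (SE 0.17, limma adjusted p = 0.165). Its partner TAP2 was at 0.32 (SE 0.17), and CFTR, a chloride channel of subfamily C, at 0.31 with signals below the negative controls.

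Among the partners of the peptide pump and of the channel subunits, TAPBP (tapasin, 0.72) and B2M (0.57) were higher without overlap, although neither reached the threshold (limma adjusted p = 0.173 and 0.161), while KCNJ8, the pore subunit that ABCC9 joins, was at -0.45 with signals below the negative controls. In the sterol efflux list (14 measured, 0 passed) the lipogenic factor SREBF1 was higher without overlap, at 1.06 (SE 0.21, limma adjusted p = 0.129). The sterol sensor NR1H3 (-0.71) and the lipoprotein gene APOE (-0.56) were lower without overlap, with signals below the negative controls in both groups. In the xenobiotic and oxidative stress list (13 measured, 0 passed) CYP1B1, a dioxin-induced oxidase, was at 10.21, 9.36, 10.03 and 9.23 in BORA tumours against 6.64, 7.06, 8.78 and 7.71 in EV tumours. Its groups did not overlap (2.16, SE 0.43, adjusted p = 0.129). The EV mean of CYP1B1 was not above the negative controls, so the size of this difference is uncertain. NQO1, a quinone reductase, was at 0.75 with overlapping groups. HMOX1, heme oxygenase, was at 1.87 with signals below the negative controls by both means and with BORA replicate 1 (5.21) inside the EV range of 5.02 to 5.48. GCLC, a subunit of the enzyme that starts glutathione synthesis, named after its value was seen, went the other way without overlap, at -0.57 (limma adjusted p = 0.326) and at -0.33 without EV replicate 1.

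ABCC4 substrates are made and degraded by the prostaglandin and cyclic nucleotide list (15 measured, 0 passed). The cyclic AMP phosphodiesterases PDE4B (0.85, SE 0.16) and PDE4D (0.69, SE 0.17) were higher without overlap but short of the threshold (limma adjusted p = 0.110 and 0.173), with PDE4B below the negative controls. The prostaglandin synthase PTGS1, above the negative controls in both groups, was lower without overlap in both comparisons. Its difference was -1.57 (SE 0.60, limma adjusted p = 0.292) over 8 arrays and -1.08 (SE 0.46) without EV replicate 1. In glutathione conjugation (15 measured, 0 passed) GSTP1 was at 0.72, GGT1, below the negative controls, at -0.45 and GSTK1 at 0.42. GSTP1 was higher and GGT1 lower without overlap, and GSTK1 overlapped. Among the uptake carriers (16 measured, 0 passed) SLC22A7 was at -0.62, SLC22A6 at -0.38 and SLCO1B1 at -0.57, all below the negative controls. SLC22A7 and SLC22A6 were lower without overlap, and SLCO1B1 overlapped.

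The last 3 lists likewise held no gene that passed. In iron-sulfur assembly (10 measured, 0 passed) NUBP1 was at 0.54, with an EV mean not above the negative controls. In peroxisome import (6 measured, 0 passed) the values over 8 arrays ran from 0.0074 to 0.34, with PEX3 the highest, and from -0.17 to 0.39 without EV replicate 1, and 0 stood at an unadjusted p under 0.05. In ribosome recycling (9 measured, 0 passed) they ran over 8 arrays from -0.26 for GSPT1, a release factor, to 0.29 for HBS1L, again with 0 at an unadjusted p under 0.05.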

How the data were processed

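RNA from 8 SK-OV-3 tumours was read on Affymetrix arrays. The deposited table holds 1 value per row and array, which the authors made with Expression Console (submitters' processing notes); version, background correction and normalization: not given in the sources used here. As the labels name no log base, the unit of the deposited values, log2 signal, was inferred from their range. Of 24351 rows, 17709 have 1 gene symbol in the supplied annotation and 0 have several; 3739 further clusters are unnamed here, and 612 rows are negative controls. All 17709 matched a GRCh38.p14 gene table, used for symbols and gene order. The array name in the series' description differs from the design the row identifiers belong to.

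All 17709 clusters were fitted with limma (lmFit, eBayes), BORA minus EV, without covariates, with Benjamini-Hochberg adjustment over all of them and a threshold of 0.05; no further normalization or filter was applied. Members and lists were chosen with earlier results of these data known. Named members were those past the threshold, the 8 smallest p-values in each comparison, the 2 with the highest mean signal per subfamily, the 6 farthest from the other arrays in EV replicate 1, and ABCB1, ABCC1 and ABCG2, of which ABCC1 is not analysed here; other members named for a feature were chosen after their values were seen, as were the neighbours, motifs and promoter composition. Partner genes named had the smallest p of their list. Summed levels are log2 of the sum of 2 raised to each signal. Labels give no batch; their serial numbers run through BORA and then EV, so any order cannot be told apart from the groups. Other normalizations, weights, filters, thresholds, a replicate block and leaving out arrays were tried. Steps were tested on simulated data. Promoter windows came from RefSeq. R 4.3.3 and limma 3.58.1 were used.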

Additional observations from a re-analysis of the deposited data

Results flagged for a closer look

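The spread within each group of 4 was examined for the 21 named members (42 groups), asking whether 1 tumour lay far from the other 3 by Dixon's ratio, the gap to the nearest tumour over the whole range. Chance flags about 1 in 20 groups. This rate does not hold here, since 6 of these members were named because EV replicate 1 lay far from the median of the other 7 arrays. All 3 EV replicate 1 cases below, and ABCC4, are among those 6. For ABCC4 that median was a BORA value, and EV replicate 1 (9.20) lay close to EV replicates 2 and 3 (9.24 and 9.20). EV replicate 1 was high for ABCA12 (ratio 0.969, 7.03 against 4.20 to 4.29), ABCG1 (0.914, 6.53 against 3.79 to 4.02) and ABCA6 (0.897, 7.22 against 5.90 to 6.04), each below the negative controls of its array. EV replicate 4 was high for ABCC4 (0.945, 9.99 against 9.20 to 9.24), which lowered the called difference: without that tumour it was 1.83. BORA replicate 3 was low for ABCB10 (0.952, 7.86 against 8.25 to 8.27).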

How the results depend on the processing

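Over 8 arrays the call of ABCC4 ended, leaving 0 called members, with the replicate block (difference 1.64, limma adjusted p = 0.155), in the ordinary test (0.153) and at a threshold of 0.01; without EV replicate 1 it ended in the ordinary test (0.252) and at that threshold. Leaving out each array gave 0 to 1 called members over 8 arrays and 1 over 7. The difference was above 0 in all settings (1.52 to 1.83 over 8 arrays, 1.43 to 1.83 over 7), with adjusted p from 0.00355 to 0.155 and from 0.00119 to 0.252. The labels do not state whether the replicate numbers pair the tumours. Deviations of same-numbered tumours from their group means correlated at -0.11, 0.039, 0.071 and -0.019. These values can neither show nor exclude pairing, because EV replicate 1, which stood apart, enters each EV deviation. With the exact permutation test, leaving out an array gave differences of 1.57 to 1.83 at p = 0.0571, the smallest that 35 splits allow. Against the 99th percentile of the negative controls 4 members exceeded them in BORA tumours and 3 in EV tumours, and against their median 24 and 28, in place of 10 and 9. Subfamily medians moved by more than 1 SD with members above the controls alone (C to 1.18 over 8 arrays and 0.92 over 7, A to 0.25 and D to 0.23 over 7), with quantile normalization (G to -0.12 over 8 and 0.018 over 7), and for G on leaving out arrays (-0.32 to -0.12 over 8 arrays, -0.32 to -0.055 over 7). Those C medians rested on 2 of 9 members, ABCC3 and the called ABCC4. The D median rested on ABCD3 and on ABCD4, which was above the controls in BORA tumours only. Of the 20 other named members, 8 changed sign in some setting over 8 arrays and 7 over 7, and none came to pass. Over all clusters the settings gave 1 to 49 calls where the main count was 18 (1 to 91 on leaving out arrays), and 0 to 277 where it was 91 (25 to 152). Each of the 39 members had 1 cluster, so averaging clusters changed no member's value. With 29 members below the negative controls in both groups, signal over background limits what their differences can show.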
